A study of Mus musculus with 12 samples.

Results

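The neurotrophins and their receptors were followed in the brains of mice that lack RasGRF2, an exchange factor that activates Ras and Rac in response to calcium. Of 8 gene symbols chosen by name, 7 had a probe set with a single gene symbol, among 19938 such genes on the array: the ligand genes Bdnf and Ntf5, the Trk receptor genes Ntrk2 and Ntrk3, the p75 receptor gene Ngfr, and the sortilin family genes Sort1 and Sorcs2. Ntf3, the gene of neurotrophin-3, had none in the annotation used and was not analysed here. Each of the 7 genes was read by 1 probe set. Adult C57BL/6 mice, 3 RasGRF2 knockout and 3 wild type, each gave hippocampus and olfactory bulb for total RNA, with 1 array per sample and 12 arrays in all. All animals lived in a conventional facility with exposure to common pathogens. No other allele, agent or treatment is given in the labels, and the part of Rasgrf2 that was deleted, whether the animals were littermates, and their sex are not stated in the labels.

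Neurotrophins are secreted growth factors of neurons. BDNF, the product of Bdnf, and neurotrophin-4, the product of Ntf5, bind the receptor tyrosine kinase TrkB, which Ntrk2 encodes, and neurotrophin-3 binds mainly TrkC, which Ntrk3 encodes. Activated Trk receptors recruit adaptors that switch on Ras and the ERK kinases, phosphoinositide 3-kinase and phospholipase C gamma. The p75 receptor, encoded by Ngfr, binds all neurotrophins, and with sortilin (Sort1) or SorCS2 it serves as a receptor for their uncleaved precursors. In the adult forebrain BDNF made by excitatory neurons supports synaptic plasticity and the survival of adult-born neurons of the dentate gyrus and the olfactory bulb.

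Values are deposited log2 intensities made by RMA, a background correction, normalization and summary over probes, so a difference of 1 is a doubling, and levels of different genes are not compared. Differences were tested with limma over all 19938 genes, and a gene was called at a Benjamini-Hochberg adjusted p under 0.05. Array medians lay between 6.86 and 6.89 in knockout and between 6.82 and 6.85 in wild-type hippocampus, and between 6.93 and 6.95 in knockout and between 6.95 and 6.96 in wild-type olfactory bulb. Ntf5 lay below the median of its array on 12 of 12 arrays and Bdnf on the 6 bulb arrays, while the other members lay above it throughout. The files hold no detection call, so how far a low value stands above background is not known. The targeted gene Rasgrf2 read 8.63 ± 0.134 in knockout hippocampus, against 9.21 ± 0.0913 in wild-type hippocampus (SD, n = 3 each), a difference of -0.58 (limma adjusted p = 0.00197), and 9.37 ± 0.0544 in knockout and 9.51 ± 0.0310 in wild-type bulb, a difference of -0.14 that did not pass (limma adjusted p = 0.532). Whether its probes lie in the deleted part is not known here. Of 15 hippocampal granule and pyramidal neuron markers all 15 were higher in hippocampus than in bulb in both genotypes, and of 11 bulb neuron markers 10 were lower there. The exception was Tbr1, which neurons of other forebrain regions also make. Knockout hippocampus replicate 6 had the lowest mean correlation with the other arrays of its tissue, 0.9891. Wild-type bulb replicate 1 carried Cyp2g1, a cytochrome gene of the olfactory epithelium, at 8.29, while the other bulb arrays read 5.37 to 5.68. Markers of oligodendrocytes, which make myelin, lay higher in knockout than in wild-type hippocampus in 9 of 9 cases, with a median difference of 0.26. Of these 0 passed the threshold and 5 had an unadjusted limma p under 0.05, beside 8.91% of all genes. Of the 15 hippocampal neuron markers 10 lay lower in knockout hippocampus, with a median difference of -0.10. Among them 1 was called lower (limma adjusted p = 7.97e-04), beside 0.256% of all genes called. The mean level of that list was 9.08 to 9.20 in knockout and 9.25 to 9.26 in wild-type hippocampus. The part of these cells in the differences below was not tested.

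The tissues differed in these genes, and the genotypes did not differ past the threshold. Of the 7 members, 6 were called between hippocampus and bulb in knockout and the same 6 in wild type, where 39.1% and 40.9% of all genes were called. Those shares are larger among genes of higher level. With only genes above the median of gene means tested, 6263 were called in knockout and 6342 in wild type. Over all 19938 genes the calls were 7804 and 8148. The filtered set is smaller than all genes, so its called share lies above 39.1% and 40.9%. That filter kept 4 members, all called. Set against shares of all genes, here and below, genes of higher level show a larger excess than they would against the filtered set. Bdnf, Ntrk3 and Sort1 were higher in hippocampus in both genotypes, as 19.2% of all genes were in knockout and 17.5% in wild type. Ntrk2, Ngfr and Sorcs2 were lower there, as 19.9% of all genes were in knockout and 23.4% in wild type. Between knockout and wild type 0 of 7 were called in hippocampus and 0 of 7 in bulb by limma, against 0.256% and 0.411% of all genes. At an unadjusted p under 0.05 there was 1 member in hippocampus, Ntf5, and 0 in bulb, where 8.91% and 11.3% of all genes reached that level. No member had knockout and wild-type bulb ranges that lay apart, as 17.1% of all genes had. The plot of values by array shows each member in the 4 groups.

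**Figure D1:**
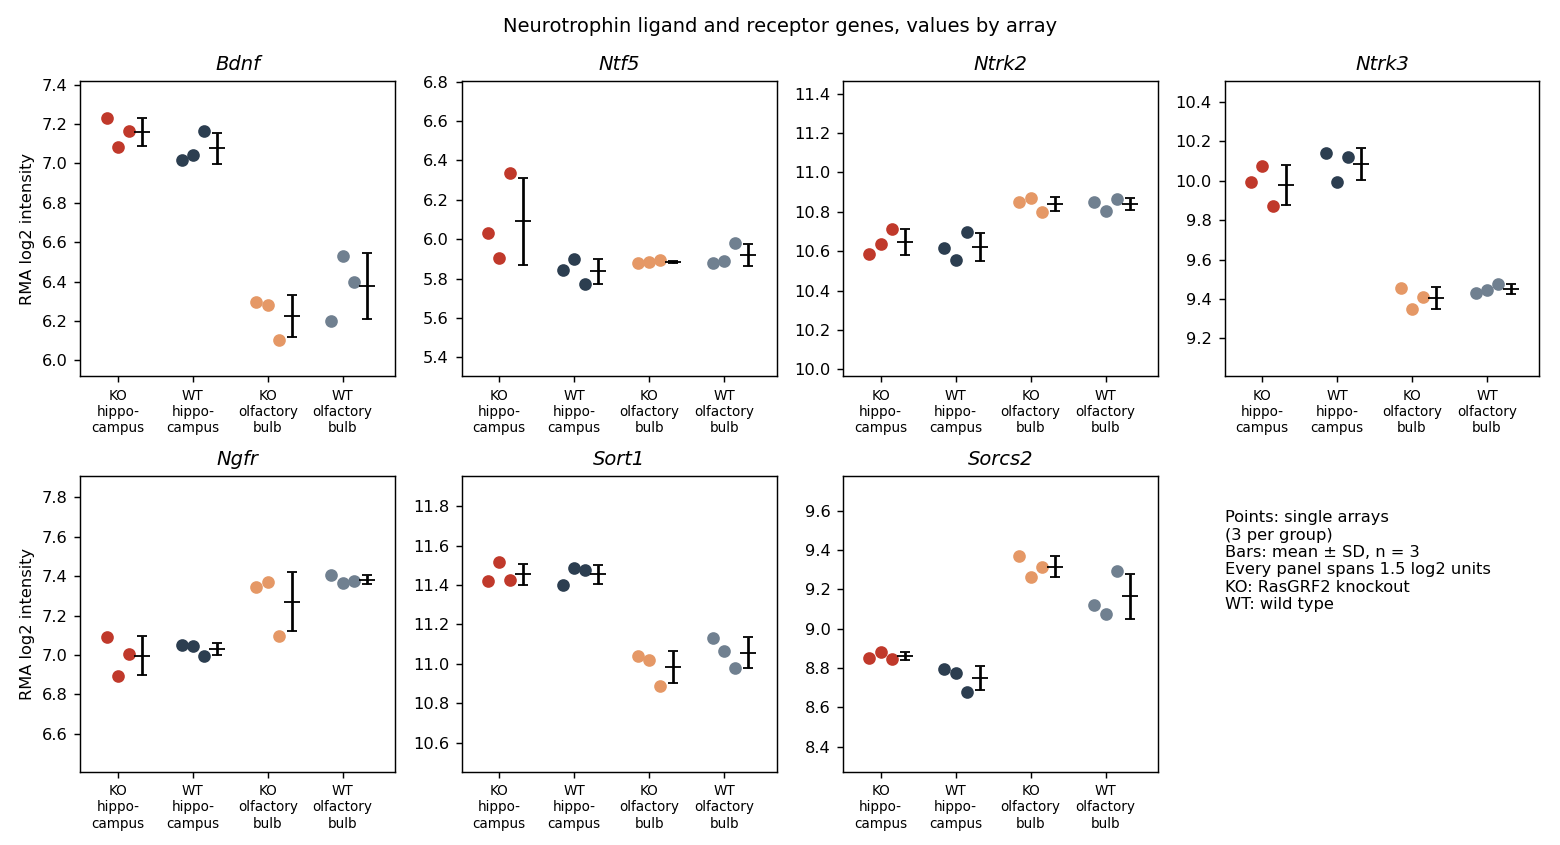
RMA log2 intensity (vertical axis) of the 7 measured genes in RasGRF2 knockout (KO) and wild-type (WT) hippocampus and olfactory bulb. Points are single arrays, bars are the mean ± SD of 3 arrays, and every panel spans the same number of log2 units. Bdnf, Ntrk3 and Sort1 stand higher in both hippocampal groups, and Ntrk2, Ngfr and Sorcs2 in both bulb groups. Knockout and wild-type points of a tissue overlap, except for Ntf5 and Sorcs2 in hippocampus, where all knockout points lie above the wild-type points.

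Among the ligands, Bdnf had the largest tissue difference of the 7 genes in each genotype, though in wild type not in every alternative setting. The 3 knockout hippocampi read 7.23, 7.08 and 7.17 and the 3 wild-type hippocampi 7.02, 7.04 and 7.17. The knockout bulbs read 6.30, 6.28 and 6.10 and the wild-type bulbs 6.20, 6.53 and 6.40. Every hippocampal array therefore lay above every bulb array, by at least the step between 7.02 and 6.53, while the genotypes overlapped in both tissues. Hippocampus exceeded bulb by 0.93 on the log2 scale in knockout (SE 0.0885, limma adjusted p = 5.57e-07), or 1.91-fold, and by 0.70 in wild type (limma adjusted p = 1.18e-05), or 1.62-fold. In 14 alternative settings per genotype both calls held, with differences of 0.87 to 1.00 in knockout and 0.61 to 0.81 in wild type. In wild type the 0.70 of Bdnf lay close to the 0.64 of Ntrk3. Without wild-type bulb replicate 1 their order turned, at 0.612 for Bdnf and 0.625 for Ntrk3.

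The knockout differences of Bdnf were small and opposite in sign. Bdnf averaged 7.16 ± 0.0725 in knockout hippocampus, against 7.08 ± 0.0789 in wild-type hippocampus (SD, n = 3 each), a difference of 0.08 with a 95% interval of -0.11 to 0.27 (limma adjusted p = 0.789). In bulb it averaged 6.23 ± 0.107 in knockout and 6.38 ± 0.167 in wild type, a difference of -0.15 with an interval of -0.34 to 0.04 (limma adjusted p = 0.551). The intervals bound the fold of knockout over wild type to between 0.929 and 1.21 in hippocampus and between 0.791 and 1.03 in bulb. The bulb difference depended on wild-type replicates: it was -0.24 without replicate 1, the array with the mucosal transcript, and -0.07 without replicate 2, and passed in neither case. The difference between the tissues in the knockout effect was 0.23 (SE 0.125, interval -0.03 to 0.50) and did not pass (limma adjusted p = 0.514). It ran from 0.15 to 0.32 over the alternatives, the lowest without wild-type bulb replicate 2 and the highest without wild-type bulb replicate 1.

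The Bdnf gene has several promoters, each with its own first exon joined to a shared coding exon, and some of them respond to calcium entry through CREB and related factors. The probe set of Bdnf is annotated with 11 RefSeq transcripts, so the values above sum over the promoters and cannot tell them apart. RefSeq's promoters, on build GRCm38.p6, gave windows for 4 of the 8 symbols, namely Bdnf, Ntf3, Ntrk2 and Ngfr, in 11 windows of 300 bases, from 250 bases before to 50 after each start. They were searched on both strands for the full cAMP response element TGACGTCA, its shorter core CGTCA, which the full element contains, and the E-box CACGTG. Of all 32851 RefSeq windows 1.79% held TGACGTCA, 20.8% held CGTCA and 7.15% held CACGTG. Of 7 Bdnf windows 1 held CGTCA and none held the other motifs, the windows of Ntrk2 and Ngfr held none of the 3, and 1 of 2 Ntf3 windows held CACGTG. These letters describe the windows and do not show that a factor binds there. The printed Bdnf window was picked because it holds the core, as 20.8% of all windows do. It is promoter IV, the start best known for induction by neuronal activity. It lies on the plus strand of chromosome 2, at chr2:109692186-109692485, and capitals mark the core, which begins at base 216 of the window.
Bdnf promoter IV: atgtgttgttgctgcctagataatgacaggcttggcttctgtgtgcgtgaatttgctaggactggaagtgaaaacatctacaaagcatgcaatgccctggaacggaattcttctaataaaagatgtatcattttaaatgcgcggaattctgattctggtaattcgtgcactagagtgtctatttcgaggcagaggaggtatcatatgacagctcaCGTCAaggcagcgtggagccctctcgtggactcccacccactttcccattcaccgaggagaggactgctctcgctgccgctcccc

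Ntf5, the gene of the second TrkB ligand, had the largest knockout difference of the 7, at values below the array median throughout. The knockout hippocampi read 6.03, 5.91 and 6.33, and the wild-type hippocampi 5.84, 5.90 and 5.77. All 3 knockout values lay above the wild-type values, the nearest pair being 5.91 and 5.90, and replicate 6 stood apart from the other knockout arrays. The difference was 0.25 (SE 0.0911, interval 0.06 to 0.45) and did not pass (limma adjusted p = 0.486). Without knockout replicate 6 it was 0.13 and without knockout replicate 5 it was 0.35, at limma adjusted p of 0.928 and 0.196. In bulb the knockout arrays read 5.88, 5.88 and 5.89 and the wild-type arrays 5.88, 5.89 and 5.98, a difference of -0.03 with an interval of -0.23 to 0.16 (limma adjusted p = 0.917). The difference between the tissues in the knockout effect, 0.29 (SE 0.129), did not pass either (limma adjusted p = 0.456), and ran from 0.17 without knockout hippocampus replicate 6 to 0.38 without replicate 5. Ntf5 was the only member not called between the tissues, at 0.21 in knockout (limma adjusted p = 0.0887) and -0.08 in wild type (limma adjusted p = 0.516). The knockout tissue difference was 0.08 without hippocampal replicate 6, and it passed in 3 of 14 alternative settings.

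Among the Trk receptors, Ntrk2, which encodes TrkB, differed little. The knockout hippocampi read 10.58, 10.64 and 10.71 and the wild-type hippocampi 10.62, 10.56 and 10.70. The bulbs read 10.85, 10.87 and 10.80 in knockout and 10.85, 10.81 and 10.86 in wild type, all 6 above the hippocampal arrays. Hippocampus lay lower by -0.20 in knockout (SE 0.0653, limma adjusted p = 0.0269), a fold of 0.873, and by -0.22 in wild type (limma adjusted p = 0.0150), a fold of 0.861. Median-centring the arrays, whose medians lie 0.07 lower in knockout and 0.11 lower in wild-type hippocampus than in bulb, ended both calls, with -0.12 in knockout (limma adjusted p = 0.150) and -0.10 in wild type (limma adjusted p = 0.264). The wild-type call was also lost without hippocampal replicate 2 (limma adjusted p = 0.0655). The knockout call held in 7 of 15 alternative settings. It was also lost in a fit of the 6 knockout arrays alone (limma adjusted p = 0.0526), with the animal as a block, which pairs the tissues (limma adjusted p = 0.0648), or the title number (limma adjusted p = 0.0567), and without replicate 4 or 5 of either tissue (limma adjusted p from 0.0549 to 0.104). The knockout effect was 0.02 in hippocampus (interval -0.12 to 0.16) and 0.00 in bulb (interval -0.14 to 0.14), with limma adjusted p of 0.936 and 0.998. The probe set of Ntrk2 is annotated with 3 RefSeq transcripts. The gene is known to give a kinase form, made by neurons, and truncated forms that astrocytes also make, and 1 value per gene cannot part them. Of 10 astrocyte markers, 4 were called higher and 2 lower in knockout hippocampus than in knockout bulb, and 3 higher and 2 lower in wild type. Of all genes 19.2% were called higher and 19.9% lower in knockout, and 17.5% and 23.4% in wild type. By sign alone 7 of the 10 lay higher in hippocampus in each genotype. The mean level of the list was 9.80 to 9.88 in knockout and 9.76 to 9.86 in wild-type hippocampus, and 9.67 to 9.71 in knockout and 9.69 to 9.79 in wild-type bulb. The part of astrocytes in the Ntrk2 difference was not tested.

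Ntrk3, which encodes TrkC, went the other way from Ntrk2. The knockout hippocampi read 9.99, 10.07 and 9.87 and the wild-type hippocampi 10.14, 9.99 and 10.12. The bulbs read 9.46, 9.35 and 9.41 in knockout and 9.43, 9.44 and 9.48 in wild type, all clear of the hippocampal range. Hippocampus exceeded bulb by 0.58 in knockout (SE 0.0712, limma adjusted p = 9.58e-06), or 1.49-fold, and by 0.64 in wild type (limma adjusted p = 3.35e-06), or 1.55-fold. These calls held in 15 of 15 alternative settings in each genotype. Knockout minus wild type was -0.11 in hippocampus (interval -0.26 to 0.05, limma adjusted p = 0.672) and -0.05 in bulb (interval -0.20 to 0.11, limma adjusted p = 0.841).

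Ngfr, the gene of the p75 receptor, was lower in hippocampus. The knockout hippocampi read 7.09, 6.89 and 7.00 and the wild-type hippocampi 7.05, 7.05 and 7.00. The bulbs read 7.34, 7.37 and 7.10 in knockout and 7.41, 7.36 and 7.38 in wild type. Knockout bulb replicate 6 sat at the edge of the hippocampal range, and the wild-type bulbs kept within a narrow band. Hippocampus lay below bulb by -0.27 in knockout (SE 0.0793, limma adjusted p = 0.0119), a fold of 0.827, and by -0.35 in wild type (limma adjusted p = 0.00214), a fold of 0.783. The knockout call was lost without bulb replicate 4, without bulb replicate 5 and without hippocampal replicate 5, at limma adjusted p of 0.0529, 0.0621 and 0.0520. In bulb, knockout minus wild type was -0.11 (interval -0.28 to 0.06, limma adjusted p = 0.616), and -0.03 without knockout replicate 6. In hippocampus it was -0.03 (interval -0.20 to 0.14, limma adjusted p = 0.915).

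In the adult bulb p75 is known from olfactory ensheathing glia, which wrap the axons that enter the bulb from the nose. Of 12 measured markers of these glia, 9 were called lower and 2 higher in hippocampus than in bulb in each genotype. Of all genes 19.9% were called lower and 19.2% higher in knockout, and 23.4% and 17.5% in wild type. By sign alone 9 of the 12 lay lower in hippocampus in knockout and 10 in wild type. Npy, 1 of the 12, is also in the list of genes induced by BDNF. The mean level of the list ran from 7.95 to 8.06 in knockout and from 7.84 to 8.09 in wild-type hippocampus, and from 8.68 to 8.77 in knockout and from 8.69 to 8.84 in wild-type bulb. Fabp7 (-1.92 in knockout, -1.87 in wild type), Cdh19 (-1.77 and -1.71) and Frzb (-1.49 and -1.15) were among the markers called lower. Sostdc1 and S100b were the 2 called higher. Astrocytes also make Fabp7 and S100b. The part of these cells in the Ngfr difference was not tested. In whole tissue, fewer cells of a type and less RNA per cell cannot be told apart.

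Of the sortilin family, Sort1, a sorting receptor that carries BDNF to secretory granules and binds pro-neurotrophins, was higher in hippocampus. The knockout hippocampi read 11.42, 11.52 and 11.42 and the wild-type hippocampi 11.40, 11.49 and 11.48. The bulbs read 11.04, 11.02 and 10.89 in knockout and 11.13, 11.06 and 10.98 in wild type, with no overlap of the tissues. The excess of hippocampus was 0.47 in knockout (SE 0.0695, limma adjusted p = 5.44e-05), or 1.39-fold, and 0.40 in wild type (limma adjusted p = 2.76e-04), or 1.32-fold. Both calls held in 15 of 15 alternative settings. Knockout minus wild type was 0.00 in hippocampus (interval -0.15 to 0.15, limma adjusted p = 0.999) and -0.08 in bulb (interval -0.22 to 0.07, limma adjusted p = 0.706).

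Sorcs2, whose product binds proBDNF together with p75, was lower in hippocampus. The knockout hippocampi read 8.85, 8.88 and 8.85 and the wild-type hippocampi 8.79, 8.77 and 8.68. The bulbs read 9.37, 9.26 and 9.31 in knockout and 9.12, 9.08 and 9.29 in wild type. Hippocampus lay below bulb by -0.46 in knockout (SE 0.0709, limma adjusted p = 9.14e-05), a fold of 0.729, and by -0.41 in wild type (limma adjusted p = 2.23e-04), a fold of 0.750, in 15 of 15 alternative settings each. Sort1 and Sorcs2, members of 1 receptor family, thus lay in opposite directions between the tissues.

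The knockout differences of Sorcs2 were positive in both tissues. In hippocampus all 3 knockout arrays lay above the wild-type arrays, with a difference of 0.11 (interval -0.04 to 0.26, limma adjusted p = 0.665). In bulb, where wild-type replicate 3 at 9.29 overlapped the knockout arrays, it was 0.15 (interval 0.00 to 0.30, limma adjusted p = 0.445), and 0.22 without that replicate (limma adjusted p = 0.245). With hippocampus and bulb averaged per animal, a test chosen after the values were seen, the knockout animals read 9.11, 9.07 and 9.08 and the wild-type animals 8.95, 8.94 and 8.99. The difference was 0.13 (SE 0.0482, interval 0.03 to 0.24) at an unadjusted limma p of 0.0197 and an adjusted p of 0.382, so it was not called. Ntf5 differed by 0.11 in the same test (SE 0.0609), so the order of the 2 genes is not settled by their errors. In this test 0 of 7 members and 0.577% of all genes were called, 9.93% of all genes had an unadjusted p under 0.05, and 9.32% had every knockout animal above every wild-type animal. Sorcs2 and Ntf5 were the 2 of 7 members with all knockout hippocampi above all wild-type hippocampi, as 9.39% of all genes were.

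**Figure D2:**
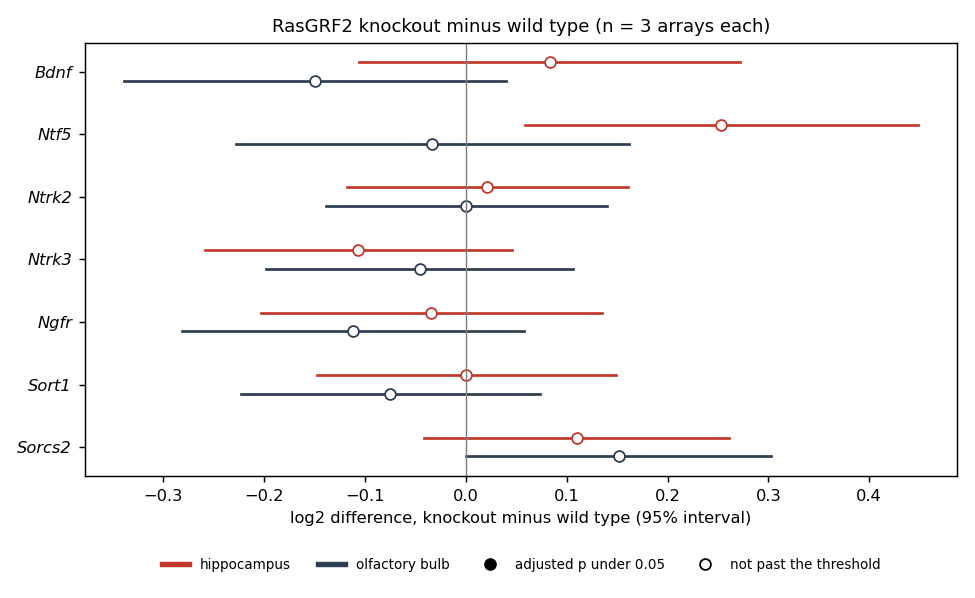
Knockout minus wild-type difference in log2 units (horizontal axis) with its 95% interval for each gene, in hippocampus (red) and olfactory bulb (dark), from 3 arrays per group. All 14 symbols are open because no difference passed an adjusted p of 0.05, and the differences run from -0.15 to 0.25.

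**Figure D3:**
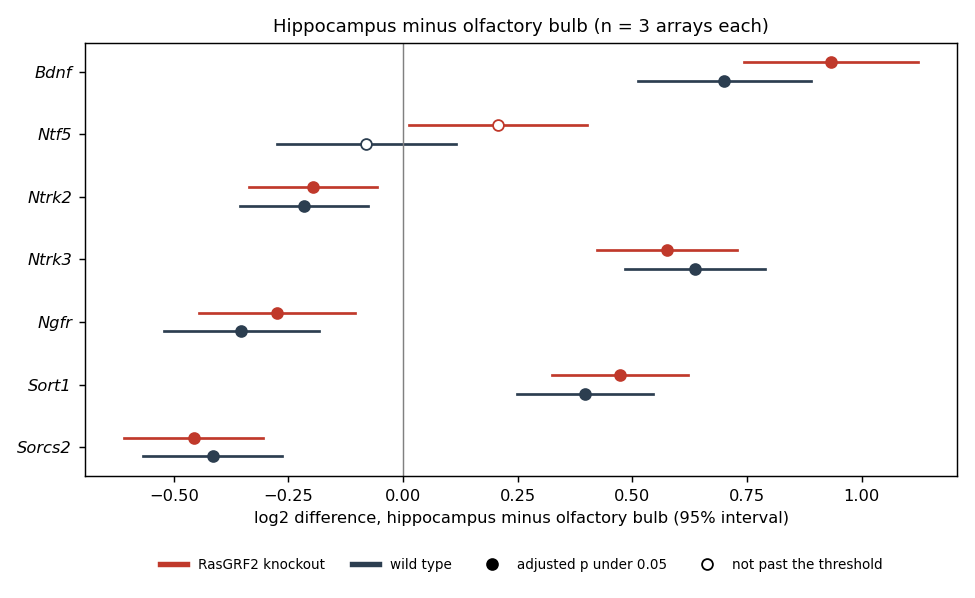
Hippocampus minus olfactory bulb difference in log2 units (horizontal axis) with its 95% interval, in RasGRF2 knockout (red) and wild type (dark), from 3 arrays per group. Filled symbols passed an adjusted p of 0.05: Bdnf, Ntrk3 and Sort1 lie to the right of 0 and Ntrk2, Ngfr and Sorcs2 to the left in both genotypes, and Ntf5 is open.

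Across the members the median absolute tissue difference was 0.46 in knockout and 0.40 in wild type, beside 0.17 and 0.18 over all genes. The median absolute knockout difference was 0.08 in hippocampus and 0.08 in bulb, beside 0.07 and 0.08 over all genes. For 6 members the 4 groups fell into a hippocampal and a bulb pair whose ranges did not overlap. The exception was Ntf5, where all neighbouring groups overlapped. Within each genotype taken alone, ranges of the tissues lay apart for 48.9% of all genes in knockout and 50.9% in wild type. A split that holds over both genotypes together is a stricter rule, so these shares are no background for the 6 members. The share of all genes that meet the stricter rule is not given here. Within a tissue the knockout and wild-type ranges overlapped for all 6, apart from Sorcs2 in hippocampus. The knockout effect differed between the tissues for 0 of 7 members by limma (adjusted p from 0.456 to 0.950), against 0.0150% of all genes, and 1 member, Ntf5, had an unadjusted p under 0.05, against 10.7% of all genes.

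The members varied largely apart from each other within the tissues. After each tissue's mean was removed, the 21 pairs of members had Pearson correlations from -0.779 to 0.480 over 12 arrays, with a median of 0.0436. The extremes were Ntf5 with Ntrk3, at -0.779, and Bdnf with Ngfr, at 0.480. Knockout hippocampus replicate 6 was the highest hippocampal array for Ntf5, at 6.33, and the lowest for Ntrk3, at 9.87. The correlation of that pair without this array was not computed. These 12 arrays come from 6 animals and share array and genotype effects, so the correlations are descriptions. On the same measure the 3 genes most like each member, picked as the highest of all named genes, reached 0.839 to 0.966. A search of so many genes over 12 arrays gives high values by selection. Those values therefore cannot be set against the member pairs, and they do not show that the genes vary with the member. The picked genes were Zfp335, F8 and Fam184a for Bdnf, Serp2, Mymx and Krt26 for Ntf5, Nts, Aadat and Rom1 for Ntrk2, and Pak7, Tfrc and Spock3 for Ntrk3. Gpat2, Rab20 and Cyp4b1 were most like Ngfr, Rufy2, Arhgap44 and Prdm11 most like Sort1, and Cplx1, Tex43 and Gfer most like Sorcs2.

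The rest of the pathway was then read from gene lists. Of 7 measured receptors and co-receptors beside the members, 0 were called between the genotypes in either tissue. Sorcs1, a further sortilin relative, averaged 7.57 in knockout and 7.23 in wild-type hippocampus, a difference of 0.33 (SE 0.0816, limma adjusted p = 0.164), and differed by -0.12 in bulb (limma adjusted p = 0.616). Lrig1, a membrane protein that restrains receptor tyrosine kinases, differed by 0.17 in bulb (limma adjusted p = 0.388). Between the tissues 6 of the 7 were called in knockout and 5 in wild type, beside 39.1% and 40.9% of all genes. Sorl1 was higher in hippocampus, by 0.41 in knockout and 0.34 in wild type, as Sort1 was. Sorcs1 (-0.47 in knockout, -0.92 in wild type), Sorcs3 (-0.33 and -0.48) and Lrig1 (-0.86 and -0.74) were lower there, as Sorcs2 was.

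None of 23 measured Trk adaptors and effectors was called between the genotypes by limma, and 2 in hippocampus and 3 in bulb had an unadjusted p under 0.05, near the 8.91% and 11.3% of all genes that had one. Those with the smallest p were Gipc1, which tethers Trk receptors to transport, in hippocampus (0.25, limma adjusted p = 0.417), and Shc4 (0.23, limma adjusted p = 0.292) and the phosphatase gene Ptpn1 (0.26, limma adjusted p = 0.338) in bulb. Between the tissues 14 of 23 were called in knockout, 4 higher and 10 lower in hippocampus, and 15 in wild type, 6 higher and 9 lower, beside 39.1% and 40.9% of all genes called. The phosphoinositide 3-kinase subunit genes Pik3r1 (-0.63 in knockout, -0.67 in wild type) and Pik3ca (-0.65 and -0.64) and the docking protein gene Gab2 (-0.61 and -0.80) were lower in hippocampus. Nedd4l, a ubiquitin ligase gene, was higher there (0.54 and 0.56).

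Of 11 measured p75 partners none was called between the genotypes by limma, with 0 in hippocampus and 3 in bulb at an unadjusted p under 0.05, which 8.91% and 11.3% of all genes reached. In bulb the adaptor gene Maged1 differed by 0.21 (limma adjusted p = 0.277), and Rtn4r, the Nogo receptor that pairs with p75 on axons, by -0.26 (limma adjusted p = 0.362). Between the tissues 7 of the 11 were called in each genotype, beside 39.1% of all genes in knockout and 40.9% in wild type. In knockout 3 were higher and 4 lower in hippocampus, and in wild type 4 higher and 3 lower. The Nogo receptor partners had the largest differences. Lingo1 was higher in hippocampus by 1.30 in knockout and 1.32 in wild type, and Rtn4r by 1.33 in knockout and 1.04 in wild type. Zfp110 (-0.64 in knockout, -0.48 in wild type) and Adam17 (-0.48 and -0.41) were lower there, as Ngfr was. The called partners thus lay on both sides.

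Among 14 measured genes of BDNF sorting, cleavage and release, 0 were called between the genotypes by limma, and 0 in hippocampus and 1 in bulb, the convertase gene Pcsk5 (-0.22, limma adjusted p = 0.303), had an unadjusted p under 0.05, beside 8.91% and 11.3% of all genes. Between the tissues 12 of the 14 were called in knockout and 10 in wild type, beside 39.1% and 40.9% of all genes. Cadps2, which primes dense-core vesicles for release, was higher in hippocampus by 1.67 in knockout and 1.48 in wild type, as Bdnf was. The granule convertase gene Pcsk1 was lower by -1.27 in knockout and -1.22 in wild type, and the granule protein gene Scg2 by -0.76 and -0.69.

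Of 14 measured transcription factors that act on the Bdnf gene, 0 were called between the genotypes in hippocampus and 1 in bulb by limma, beside 0.256% and 0.411% of all genes. At an unadjusted limma p under 0.05 there were 3 in hippocampus and 1 in bulb, beside 8.91% and 11.3% of all genes. Npas4, an activity-induced factor that drives Bdnf promoters in neurons, read 9.34, 9.65 and 9.09 in knockout bulb and 10.31, 10.17 and 10.54 in wild-type bulb. The ranges did not overlap, and Npas4 fell by 0.98 (SE 0.198, limma adjusted p = 0.0468), a call that held in 5 of 13 alternative settings (limma adjusted p from 0.0206 to 0.232). It was lost in the other 8, among them those without any of the wild-type bulb replicates and without knockout bulb replicate 4 or 6. Further losses came from settings other than leaving out 1 array. In hippocampus it differed by -0.50 (limma adjusted p = 0.518). Between the tissues 9 of the 14 were called in knockout, 2 higher and 7 lower in hippocampus, beside 39.1% of all genes called. In wild type 11 were called, 2 higher and 9 lower, beside 40.9%. Npas4 was lower in hippocampus, by -1.80 in knockout and -2.28 in wild type, and Mef2c by -1.27 and -1.29, whereas Bdnf was higher there. Usf1 was higher in knockout hippocampus than in knockout bulb by 0.63.

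The genes that BDNF is known to induce in neurons include immediate early genes that neuronal activity also induces. Of 20 measured, 0 were called between the genotypes in either tissue by limma, and 2 in hippocampus and 4 in bulb had an unadjusted p under 0.05, beside 8.91% and 11.3% of all genes. In bulb 18 of 20 lay below 0, with a median of -0.16 beside -0.02 over all genes, and in hippocampus 9 lay below 0, with a median of 0.02 beside 0.03. The mean level of the list was 8.97 to 9.16 in knockout and 9.20 to 9.29 in wild-type bulb. The genes with the smallest p in bulb were Fos (-0.56, limma adjusted p = 0.304), the plasticity gene Arc (-0.52, limma adjusted p = 0.351) and Vgf, a granule peptide precursor (-0.28, limma adjusted p = 0.360). The median in bulb ran from -0.19 to -0.11 when each array was left out in turn. Some marker lists of other cells also lay lower in knockout bulb. The median was -0.19 with 6 of 7 below 0 for oligodendrocyte precursors, -0.14 with 10 of 12 for meninges and fibroblasts, and -0.09 with 8 of 10 for endothelium and mural cells. It was -0.10 with 8 of 12 for ensheathing glia and -0.09 with 7 of 9 for oligodendrocytes. For astrocytes it was -0.08 with 7 of 10, and for choroid plexus -0.07 with 6 of 7. The bulb neuron list went the other way, at 0.12 with 8 of 11 above 0, and microglia stood at 0.00. The remaining marker lists had medians from -0.06 to -0.03. The mean level of the precursor list was 7.97 to 8.05 in knockout and 8.12 to 8.19 in wild-type bulb, that of the meningeal list 7.83 to 7.90 in knockout and 7.76 to 8.20 in wild type, and that of the endothelial list 7.65 to 7.74 in knockout and 7.72 to 7.89 in wild type. No gene of these marker lists was called between the genotypes in bulb, and their part in the shift of the genes induced by BDNF was not tested. In hippocampus Nptx2, a synaptic pentraxin, differed by 0.36 (limma adjusted p = 0.193). Between the tissues 15 of the 20 were called in knockout and 16 in wild type, beside 39.1% and 40.9% of all genes, with Egr1 lower in hippocampus (-1.38 in knockout, -1.44 in wild type), Nr4a1 lower (-1.41 and -1.57) and Sst, the peptide of an interneuron class, higher (2.70 and 2.07).

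**Figure D4:**
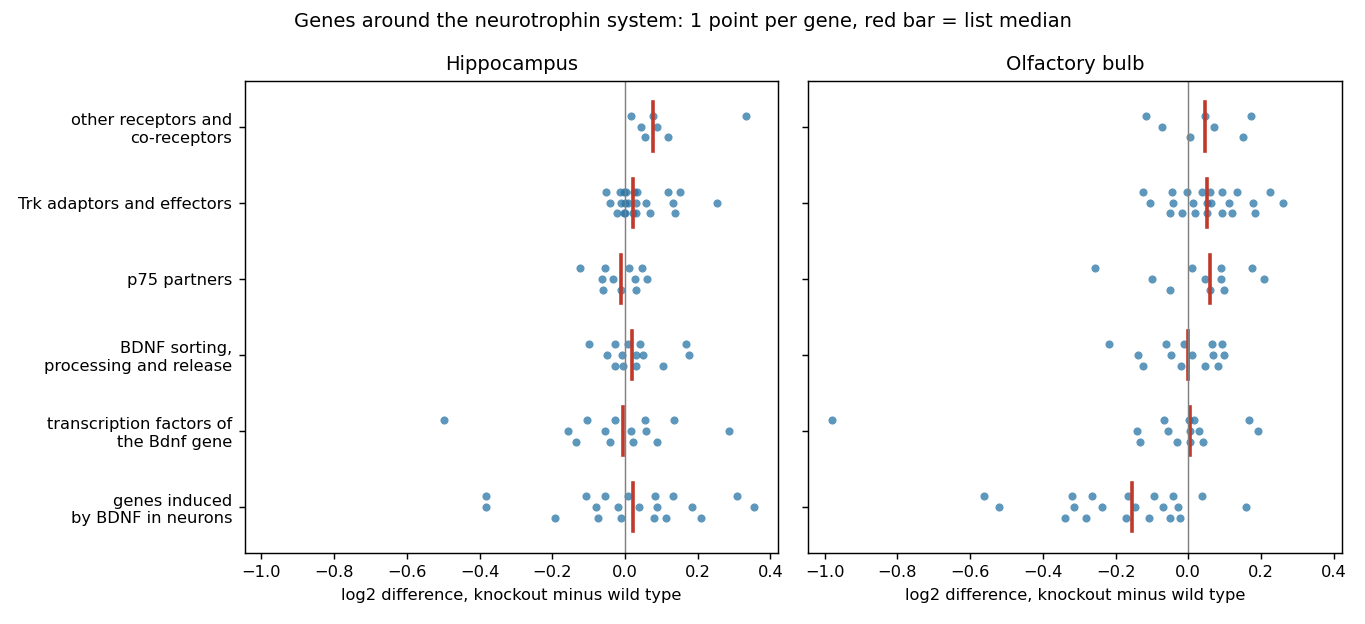
Knockout minus wild-type difference in log2 units (horizontal axis) of the measured genes of 6 lists around the neurotrophin system, in hippocampus (left) and olfactory bulb (right). Each point is 1 gene and each red bar a list median; 18 of 20 genes induced by BDNF lie left of 0 in bulb, and the far left point among the transcription factors in bulb is Npas4 at -0.98.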

How the data were processed

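Per the labels' protocols, total RNA was extracted with Trizol, fragmented, biotinylated and hybridised to 1-colour arrays. The deposited log2 values, 1 for each probe set on each array, come from RMA in the oligo package, per the submitters' processing notes. RMA corrects background, quantile-normalizes and summarises probes, and compresses differences near background. The sources used here give no versions or genome build, and do not say whether both tissues entered 1 normalization. Of 35556 probe sets, 21789 carried 1 gene symbol in the platform annotation, 1621 several, and the rest were unnamed here; each of 19938 genes was represented by its probe set of highest mean. The number of arrays limits the precision.

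Tests used limma 3.58.1 in R 4.3.3 on the deposited log2 values, as 4 group means over 12 arrays, with default eBayes, Benjamini-Hochberg adjustment over all genes and 95% intervals from the moderated fit. The fitting was tested on simulated data. Figures used matplotlib 3.10.9 in Python 3.11.15. Replicates are separate animals. Tissues of an animal were joined by the animal code in the labels. The code and the number in the title disagree for wild-type animals I547 and N135. Deviations from group means of the tissues sharing a code correlated from -0.255 to 0.116 across genes. Of 227 entries in the pathway and marker lists, 212 were measured, older symbols being matched through RefSeq's gene names on GRCm38.p6.

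The members and lists were chosen with earlier results of these data known. The text names Rasgrf2, all members, up to 6 called genes of a list and 3 others of smallest p in genotype comparisons, up to 4 of largest difference in tissue comparisons, and the 3 genes most correlated with each member, leaving out clone, predicted, small RNA and chemoreceptor names. Markers of ensheathing glia, Tbr1 and Cyp2g1 were named after their values were seen. Alternatives were the arrays fitted, the probe sets tested, their averaging, median-centring, moderation with trend and robust settings, array weights, a filter on low values, each array left out, and the animal as a block.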

Additional observations from a re-analysis of the deposited data

Results flagged for a closer look

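For Bdnf and Ntf5 every knockout array lay on one side of the wild-type mean in hippocampus and on the other side in olfactory bulb. Knockout Bdnf stood 0.15, 0.01 and 0.09 above the wild-type mean in hippocampus and differed by -0.08, -0.10 and -0.27 in bulb, a difference between the tissues of 0.23. Knockout Ntf5 stood 0.19, 0.07 and 0.50 above it in hippocampus and differed by -0.04, -0.04 and -0.03 in bulb, a difference of 0.29. Of all genes 10.4% showed such a pattern. With arrays centred on their medians, which was added after seeing the data, 9.33% did, Ntf5 kept it and Bdnf lost it, as 1 knockout hippocampus then stood at -0.01. Neither passed the test of the difference itself (limma adjusted p = 0.514 for Bdnf and 0.456 for Ntf5), the alternatives ran from 0.15 to 0.32 for Bdnf and from 0.17 to 0.38 for Ntf5, and for both genes knockout and wild-type values overlapped in bulb.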

How the results depend on the processing

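The counts of members called between the genotypes, and of members with a tissue difference in the knockout effect, were 0 of 7 in every alternative run. Between the tissues 4 to 6 members were called in wild type and 4 to 7 in knockout, and the 4 members left by a filter on low values were all called in both genotypes. With the animal, or the number in the title, as a replicate block, 0 were called for the difference in the knockout effect, 6 between the tissues in wild type and 5 in knockout, where Ntrk2 was lost, and no other call of a member changed. Over all genes the calls between the genotypes moved more: 51 in hippocampus, against 28 within the tissue, 125 with every probe set, 336 with array weights and 30 to 43 with 1 array left out, and 82 in bulb, against 36 within the tissue, 136 with trend and robust moderation and 35 to 105 with 1 array left out. For the difference between tissues in the knockout effect 3 genes were called, against 0 to 12. Differences near 0 changed sign. With arrays centred on their medians, knockout minus wild type in hippocampus was -0.0138 for Ntrk2 and -0.0349 for Sort1, the tissue difference in the knockout effect -0.0222 for Ntrk2, and hippocampus minus bulb in wild type 0.0330 for Ntf5. With array weights the hippocampal values were -0.0318 for Ntrk2, 0.0346 for Ngfr and -0.0174 for Sort1, and the difference in the knockout effect -0.0359 for Ntrk2. With 1 array left out, knockout minus wild type in hippocampus ran from -0.0138 to 0.0578 for Ntrk2, -0.0815 to 0.0169 for Ngfr and -0.0306 to 0.0166 for Sort1, and in bulb from -0.0167 to 0.0202 for Ntrk2. The tissue difference in the knockout effect ran from -0.0142 to 0.0573 for Ntrk2, -0.00844 to 0.129 for Ngfr and -0.106 to 0.00243 for Sorcs2. Averaged over tissues with 1 animal left out, an alternative chosen after seeing the data, Ntrk2 ran from -0.00342 to 0.0350, and the median of the 20 genes induced by BDNF in hippocampus, with 1 array left out, from -0.01 to 0.07. The causes of these shifts were not tested. With 3 arrays a group, genotype differences inside the printed 95% intervals are not excluded by these data.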
